A study of Mus musculus with 70 samples.

Results

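The genes of TGF-beta production and signalling were followed in regulatory T cells (Tregs) from 6 mouse tissues. The 10 genes were taken by name out of the 53465 genes in the count table: Tgfb1, Lrrc32, Tgfbr1, Tgfbr2, Smad2, Smad3, Smad4, Smad7, Ski and Skil. All 10 passed the filter on low counts, and each had at least 6 counts in every library used.

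Tregs were sorted from blood, spleen, lungs, visceral fat (VAT), the lamina propria of the colon and the skin of the back in the same 5 male mice and measured by RNA-seq. All mice were on the B6.129(Cg) background and carried the Foxp3YFP-cre allele, Foxp3tm4(YFP/icre)Ayr, which drives a YFP-Cre fusion from the Foxp3 gene, so that YFP marked the Tregs. The mice were 16.6 to 18.6 weeks old and received no treatment named in the labels. Sorted cells were live, CD45.2+, CD4+ and YFP+, and lacked CD8 and CD11b among other lineage markers. The populations were ST2+ CD44hi and ST2- CD44hi cells from every tissue, and ST2- CD44lo cells from spleen and lungs, which gives 14 groups. ST2, encoded by Il1rl1, is the receptor for interleukin-33. A library held 220 cells unless fewer were obtained, and the smallest library used held 55.

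Of 70 libraries, 67 had over 1000000 counts and were used, with totals from 1304560 to 2759926 (median 2039002). The groups held 5 libraries each, except ST2+ cells of blood with 4 and ST2+ cells of colon with 3. Foxp3 was detected in all 67 libraries, at 105 to 414 counts per 1000000 (CPM). Il1rl1 stood at 230 to 1614 CPM in ST2+ libraries, with a median of 871, against 0 to 195 CPM and a median of 9.52 in ST2- CD44hi libraries. The ST2+ range of Il1rl1 lay above that of ST2- CD44hi libraries and that of CD44lo libraries (0 to 4.69 CPM), and Cd8a, a marker of the excluded CD8 cells, was above 0 in 2 of 67 libraries, although the other CD8 chain, Cd8b1, had group means of 22.4 to 54.5 CPM in all 14 groups. Fewer cells of a kind and less RNA per cell cannot be told apart in such bulk libraries.

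TGF-beta is made as a latent complex, and Tregs hold it on their surface through GARP, the product of Lrrc32, until integrins release it. The active cytokine brings together the receptors TGFBR2 and TGFBR1, which phosphorylate SMAD2 and SMAD3, and these move to the nucleus with SMAD4. SMAD7 blocks the receptors, while SKI and SKIL (SnoN) hold back SMAD-driven transcription, and Smad7 and Skil are themselves known targets of the pathway. In Tregs, TGF-beta is known both as an effector cytokine and as a signal that sustains Foxp3.

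The start sites of 3 members are shown because Tgfb1 and Ski were higher in skin than in spleen in both CD44hi populations, while Tgfbr2 was not and differs from them in its motifs. The 250 bases before the start were searched for the SMAD box CAGAC or its complement GTCTG, for the palindrome GTCTAGAC and for GGCGCC, on both strands. None of these letter strings contains another. A SMAD box on either strand stood in 42.2% of the 32851 windows of that length in the RefSeq table (GRCm38.p6), GGCGCC in 9.59% and GTCTAGAC in 0.167%. In the sequences, which read 5′ to 3′ on the gene's strand, capitals mark a match. The Tgfb1 window (chr7:25686752-25687001, plus strand) held none of the strings, the Ski window (chr4:155222593-155222785, minus strand, less 57 bases that lie in an annotated exon) held 1 GGCGCC, and the Tgfbr2 window (chr9:116175364-116175613, minus strand) held 1 CAGAC.
Tgfb1: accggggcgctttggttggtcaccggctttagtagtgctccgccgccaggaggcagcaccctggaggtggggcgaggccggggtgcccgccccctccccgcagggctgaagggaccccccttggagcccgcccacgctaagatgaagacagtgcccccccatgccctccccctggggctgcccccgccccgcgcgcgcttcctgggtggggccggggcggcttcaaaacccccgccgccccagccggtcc
Ski: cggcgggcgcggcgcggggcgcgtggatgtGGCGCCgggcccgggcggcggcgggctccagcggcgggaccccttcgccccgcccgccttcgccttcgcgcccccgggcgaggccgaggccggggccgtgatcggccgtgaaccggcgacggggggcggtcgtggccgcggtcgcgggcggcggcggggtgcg
Tgfbr2: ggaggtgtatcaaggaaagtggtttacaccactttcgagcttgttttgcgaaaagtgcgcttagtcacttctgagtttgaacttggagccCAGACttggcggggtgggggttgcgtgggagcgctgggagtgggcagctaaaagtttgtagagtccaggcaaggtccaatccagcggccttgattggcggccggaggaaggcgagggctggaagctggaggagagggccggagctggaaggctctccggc
A match describes the letters only. The table held 5 of the 10 members. The Smad3 window held no match, and of the windows of Tgfbr1 at its pair of starts, 1 held GGCGCC and the other CAGAC.

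All 10 genes were expressed in every group, at levels that differed between genes by several fold. Per kilobase of exon, and averaged over all 67 libraries, the common partner Smad4 stood highest with 52.6 CPM per kb, followed by the TGF-beta anchor Lrrc32 with 47.2 and the repressor Skil with 28.9. Smad3, one of the receptor-activated Smads, stood lowest with 9.27 CPM per kb, while the other, Smad2, had 17.6. Tgfbr2 (24.7), Ski (20.9), Tgfb1 (16.1), Tgfbr1 (14.7) and Smad7 (12.8) lay between them on the same scale. Smad7 varied most across the 14 groups, with a ratio of highest to lowest group mean of 7.48, ahead of Lrrc32 (6.62), Skil (5.28) and Tgfb1 (4.36). Smad2 varied least, with a ratio of 1.35. Counts behind these levels were lowest for Smad7 and Smad3, whose medians per library were 90 and 98 counts, and highest for Skil with a median of 513.

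**Figure D1:**
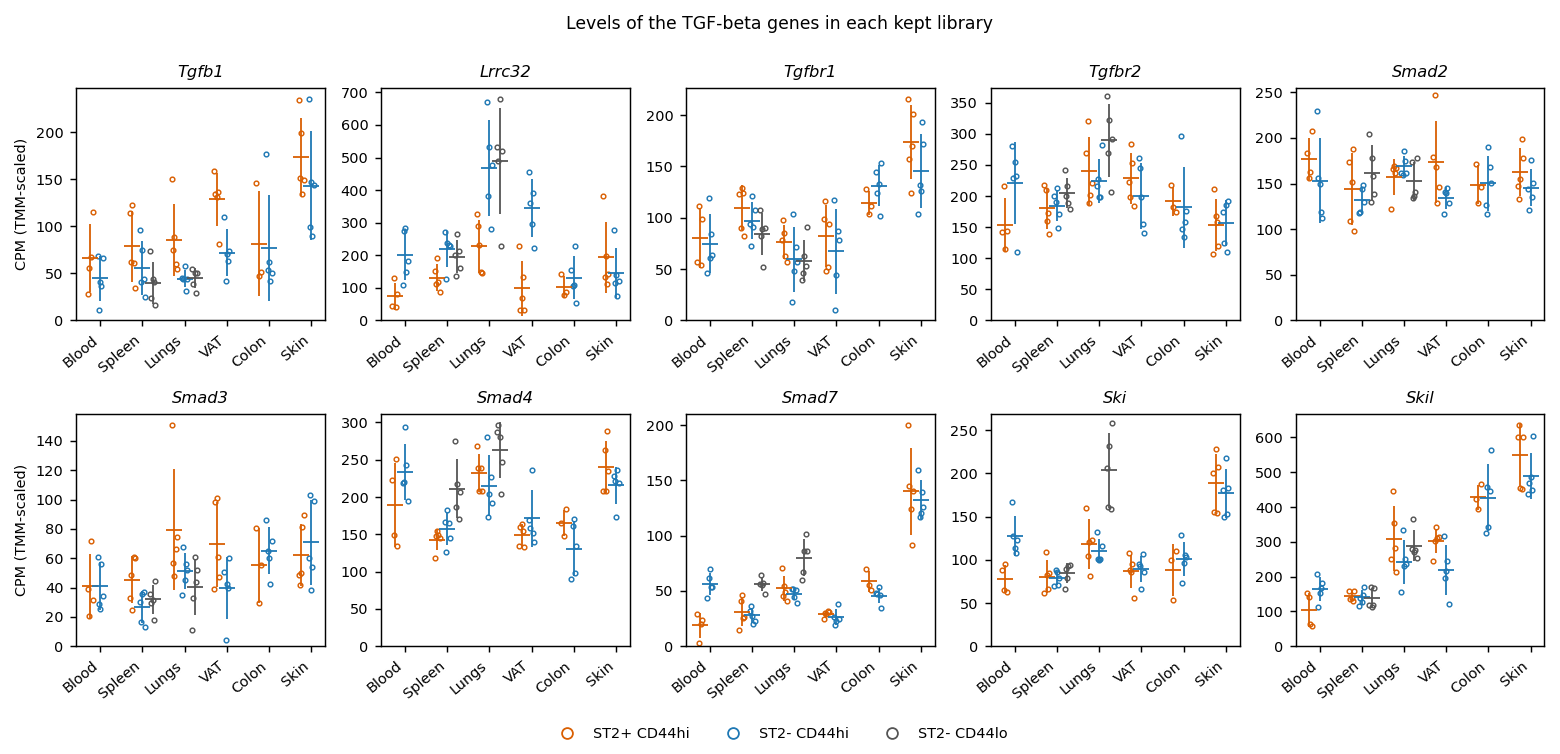
Levels of the 10 genes in CPM on linear axes that start at 0, with 1 panel per gene, tissues along the horizontal axis and colours for the populations. Circles are libraries, horizontal bars group means and vertical bars the SD. Smad7 and Skil have their highest group means in skin, Lrrc32 in lungs ST2- cells, and the group means of Smad2 lie between 132 and 177 CPM.

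Tissue differences within each CD44hi population were tested over the 6 tissues with 1 F test per gene (edgeR quasi-likelihood, Benjamini-Hochberg adjustment over 13173 genes). In ST2+ cells 8 of 10 members passed at an adjusted p of at most 0.05, against 47.6% of all tested genes. Among ST2- CD44hi cells the number was also 8 of 10, against 43.5%. Smad2 passed in neither population (adjusted p = 0.560 and 0.373, edgeR), Smad3 missed it in ST2+ cells (adjusted p = 0.282) and Tgfbr2 missed it in ST2- CD44hi cells (adjusted p = 0.219). Without mouse 4, the number passing in ST2+ cells was 5.

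Each tissue was then compared with spleen within a population, where a call needed a change of 1.5-fold or more together with an adjusted p no greater than 0.05. All comparisons of a population with spleen share the same 5 spleen libraries. In skin, 5 of 10 members were called in ST2+ cells (29.1% of all genes) and 5 of 10 in ST2- CD44hi cells (30.9%). All of these were higher in skin, against 14.4% and 16.7% of all genes called higher. Tgfb1, Smad7, Ski and Skil were called in both populations, Smad4 in ST2+ cells and Smad3 in ST2- CD44hi cells. The median log2 difference of the 10 members was 0.71 in ST2+ cells and 0.87 in ST2- CD44hi cells, where the medians of all genes were -0.01 and 0.00.

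The ligand gene Tgfb1 (chr7:25687002-25705077, plus strand) encodes TGF-beta 1. In skin, ST2+ cells of mice 1 to 5 had 234, 151, 199, 134 and 149 CPM, and in spleen 114, 61.9, 122, 61.4 and 34.6 CPM. Every skin library lay above every spleen library, and the log2 difference was 1.14 ± 0.40 (SE, edgeR adjusted p = 0.0230). For ST2- CD44hi cells the skin values were 235, 99.1, 147, 89.5 and 144 CPM and the spleen values 96.5, 41.0, 74.3, 43.5 and 25.3 CPM. These groups overlapped slightly, because mouse 1 had a high value in spleen, while skin was above spleen in each of the 5 mice (log2 difference 1.35 ± 0.40 SE, edgeR adjusted p = 0.00687). The call in ST2+ cells was lost without mouse 4 or 5, with edgeR adjusted p of 0.0717 and 0.0678. Between skin and other tissues, Tgfb1 was called over blood in both populations and over lungs in ST2- CD44hi cells. The blood call in ST2+ cells was lost without mouse 2 or 3 (edgeR adjusted p = 0.0598 and 0.0894). With mouse as a block it was also called in skin over lungs (log2 1.08) and colon (1.40) in ST2+ cells and over VAT (0.98) and colon (0.99) in ST2- CD44hi cells, with edgeR adjusted p from 0.00340 to 0.0117. Without the block these adjusted p were 0.0585, 0.103, 0.0659 and 0.110. Between neighbours in the order of group means, the only gap wider than the larger SD lay between ST2+ cells of VAT (128 ± 28.6 CPM, SD, n = 5) and of lungs (85.4 ± 38.5, SD, n = 5). Skin and VAT ST2+ cells therefore stood at the top of the order with skin ST2- CD44hi cells, and the other 11 groups could not be ranked by this measure.

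ST2+ cells had more Tgfb1 than ST2- CD44hi cells of the same mouse in 24 of 27 pairs, including every pair in blood, spleen, lungs and VAT. In VAT the ST2+ libraries had 159, 134, 131, 137 and 81.2 CPM and the ST2- CD44hi libraries 110.1, 41.3, 70.7, 62.9 and 73.3 CPM. These groups overlapped, and the log2 difference of 0.84 ± 0.40 (SE) did not pass (edgeR adjusted p = 0.253). The test passed in none of the 6 tissues, with log2 differences between 0.10 in colon and 0.94 in lungs. Markers of platelets summed to 456 and 164 CPM in blood ST2+ and ST2- CD44hi cells, but to 17.9 and 27.6 CPM in lungs. Myeloid markers summed to 129 and 49.2 CPM in VAT, but to 6.37 and 11.8 CPM in spleen, in the same order. Their part in the Tgfb1 differences was not tested.

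Lrrc32 (chr7:98489283-98502181, plus strand), which encodes the latent TGF-beta anchor GARP, was lower in ST2+ than in ST2- CD44hi cells in 22 of 22 mouse pairs outside skin and higher in 5 of 5 pairs in skin. In VAT, ST2+ cells had 229.8, 30.4, 69.4, 134 and 32.0 CPM, and ST2- CD44hi cells 455, 361, 296, 392 and 222 CPM. The groups overlapped at a single value, the ST2+ library of mouse 1. In VAT 1 of 10 members was called, Lrrc32 (3.12% of all genes), with a log2 difference of -1.79 ± 0.40 (SE, edgeR adjusted p = 0.00284). In blood, the ST2+ libraries of mice 2 to 5 had 43.1, 130.3, 41.5 and 80.9 CPM and the 5 ST2- CD44hi libraries 109, 274, 284, 149.9 and 184 CPM. Each ST2+ library lay below its ST2- partner, although mouse 3 overlapped the other group, and the log2 difference was -1.43 ± 0.43 (SE, edgeR adjusted p = 0.0387). The blood call was lost without mouse 2, 3, 4 or 5 (edgeR adjusted p from 0.0800 to 0.239) and with limma-voom (0.0880). Fitted on 1 tissue alone, neither the VAT nor the blood difference passed (edgeR adjusted p = 0.120 and 0.129).

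In lungs, ST2+ cells had 327, 289, 229.9, 147 and 145 CPM of Lrrc32 and ST2- CD44hi cells 671, 382, 531, 279.7 and 477 CPM, a log2 difference of -1.04 ± 0.38 (SE) that did not pass (edgeR adjusted p = 0.260). The lungs difference passed when that tissue was fitted alone (adjusted p = 0.0307). In skin, ST2+ cells had 382, 134, 196, 113 and 142 CPM and ST2- CD44hi cells 277, 115, 138, 76.2 and 121 CPM. The skin groups overlapped almost wholly, and the log2 difference was 0.41 ± 0.39 (SE, edgeR adjusted p = 0.916). Whether the ST2 difference varied with tissue was tested as an interaction across the 6 tissues, which Lrrc32 did not pass (edgeR adjusted p = 0.122) and did pass with mouse as a block (adjusted p = 0.0329).

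**Figure D2:**
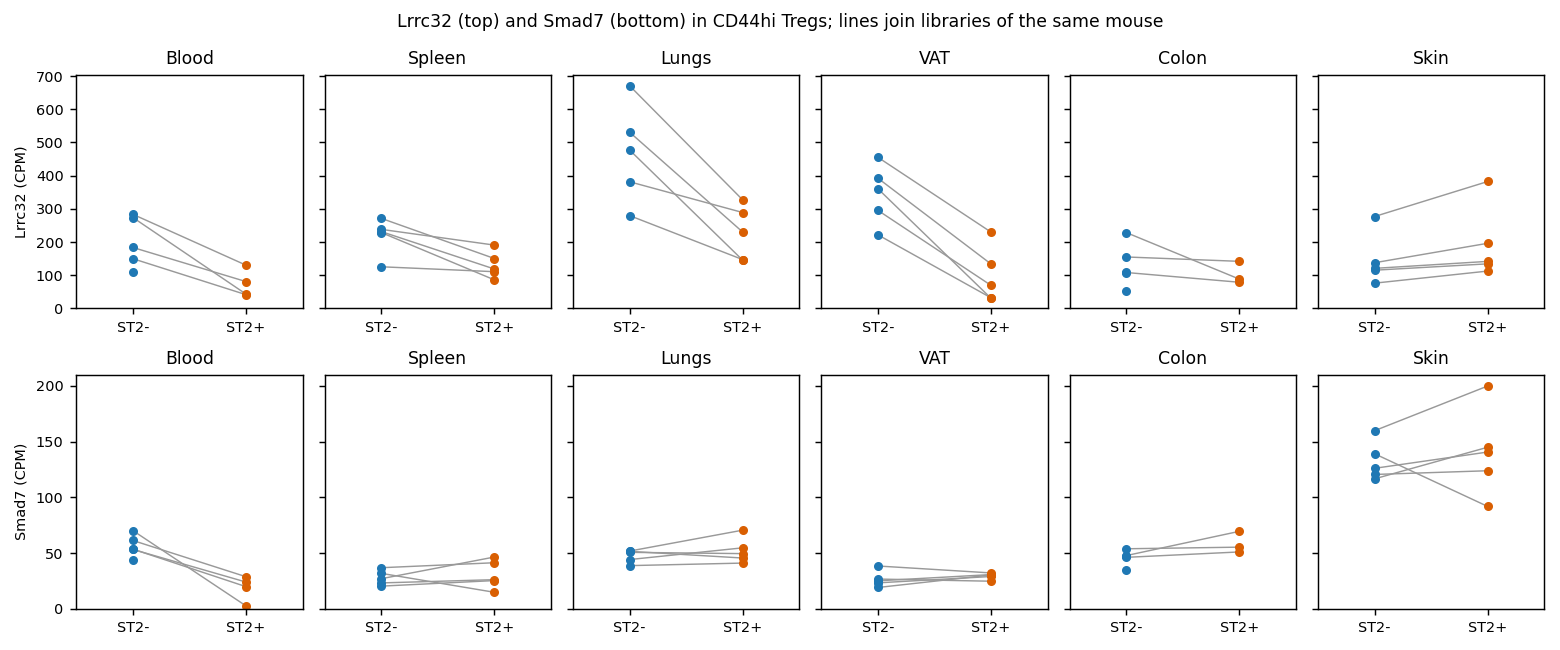
Lrrc32 and Smad7 in ST2- and ST2+ CD44hi cells of each tissue, in CPM, with a line joining the libraries of 1 mouse. Points without a line have no kept partner library. Lrrc32 lines go down to ST2+ in all 22 pairs outside skin and up in all 5 pairs in skin, whereas Smad7 lines go down in blood.

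Among tissues, Lrrc32 in ST2- CD44hi cells was highest in lungs. These comparisons between tissues other than spleen were chosen after their values were seen. The log2 difference of lungs over colon was 1.84 ± 0.40 (SE, edgeR adjusted p = 0.00126) and that of skin over lungs was -1.68 ± 0.39 (SE, adjusted p = 0.000933), with no overlap of libraries in either. The colon libraries had 155, 107, 108, 229 and 53.2 CPM. Lrrc32 was 1 of 4 members called for lungs over colon in ST2- CD44hi cells (5.91% of all genes). Against spleen it was called in no tissue of either population, but with mouse as a block it was called in lungs ST2- CD44hi cells (log2 1.07, edgeR adjusted p = 0.0398, against 1.09 and 0.0927 without the block), as with limma-voom (1.06, adjusted p = 0.000244). In ST2- CD44hi cells Lrrc32 was lower in skin than in VAT (log2 -1.24 ± 0.39 SE, edgeR adjusted p = 0.0166), a call lost without mouse 2 or 4 (0.0607 and 0.0936) and with sorted cells as a covariate (0.0651). In the opposite direction, the block called Lrrc32 higher in skin than in VAT ST2+ cells (log2 1.0, edgeR adjusted p = 0.0246, against 0.96 and 0.0626 without it), as did DESeq2 (0.99, adjusted p = 0.0481). In the order of group means, the gap between VAT ST2- CD44hi cells (345 ± 89.8 CPM, SD, n = 5) and lungs ST2+ cells (228 ± 82.0, SD, n = 5) exceeded the larger SD, so that both lungs ST2- groups and the VAT ST2- CD44hi group formed the upper end.

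The receptors moved in opposite directions between skin and some other tissues. Tgfbr1 (chr4:47353222-47414931, plus strand), the type I receptor, had 216, 158, 124, 169 and 201 CPM in skin ST2+ cells and 78.1, 97.7, 85.2, 62.9 and 57.2 CPM in lungs ST2+ cells. Every skin library was above every lungs library, with a log2 difference of 1.19 (edgeR adjusted p = 0.00549) in ST2+ cells and 1.29 (adjusted p = 0.00244) in ST2- CD44hi cells. Skin was also called over blood, by 1.11 and 0.96, and over VAT, by 1.09 and 1.10, on the log2 scale in ST2+ and ST2- CD44hi cells. With the 3 libraries of few counts included, the difference from blood in ST2+ cells was 0.15 (edgeR adjusted p = 0.828), the added blood library having 305 Tgfbr1 counts. Tgfbr1 was not called over spleen (log2 0.66, edgeR adjusted p = 0.103, and log2 0.58, adjusted p = 0.154), whereas limma-voom called it in both populations (0.65 and 0.61, adjusted p = 0.00823 and 0.0162). Skin against lungs in ST2- CD44hi cells kept its call under every setting tried, while each of the other Tgfbr1 calls over blood, lungs and VAT was lost without mouse 4 or 5 in ST2+ cells or mouse 3, 4 or 5 in ST2- CD44hi cells (edgeR adjusted p from 0.0509 to 0.0910).

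Tgfbr2 (chr9:116084293-116175360, minus strand), the type II receptor that binds the ligand, had 107, 212, 168, 159 and 119 CPM in skin ST2+ cells. In lungs ST2+ cells it had 269, 321, 188, 202 and 221 CPM, so that the groups overlapped in mouse 2 of skin. Skin was lower than lungs by a log2 difference of -0.66 ± 0.21 (SE, edgeR adjusted p = 0.0179). Skin was also lower than VAT in ST2+ cells, with -0.59 (adjusted p = 0.0308), which came to -0.58 (adjusted p = 0.0169) with mouse as a block and so fell short of 1.5-fold. Both calls were lost without some mice, the lungs call without mouse 1 or 5 and the VAT call without mouse 1, 3, 4 or 5 (edgeR adjusted p from 0.0551 to 0.108). The VAT difference also fell short of 1.5-fold with DESeq2 (-0.57), RLE factors (-0.57) and no filter on low counts (-0.58). With all 70 libraries it did not pass (edgeR adjusted p = 0.0722). No ST2 difference passed for either receptor in any tissue.

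Among the Smads that carry the signal, Smad2 (chr18:76241580-76310963, plus strand) was called in no comparison with spleen and no ST2 comparison, with group means between 132 CPM in spleen ST2- CD44hi cells and 177 CPM in blood ST2+ cells. Smad3 (chr9:63646767-63757994, minus strand) had 59.8, 103, 38.3, 53.8 and 99.1 CPM in skin ST2- CD44hi cells and 30.3, 16.3, 35.7, 37.3 and 13.4 CPM in spleen. The skin libraries all lay above the spleen libraries, with the smallest gap between 38.3 and 37.3 CPM, and the log2 difference was 1.41 ± 0.41 (SE, edgeR adjusted p = 0.00572). Colon ST2- CD44hi cells, with 85.8, 65.1, 60.3, 42.8 and 71.9 CPM, were also above spleen (log2 1.29 ± 0.41 SE, edgeR adjusted p = 0.0274). In ST2+ cells Smad3 was called over spleen in no tissue, with 0.45 on the log2 scale in skin. The skin call was lost without mouse 5 (adjusted p = 0.0765), and the colon call without mouse 1, 2 or 5 (0.0623 to 0.156, edgeR).

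Smad4 (chr18:73639009-73703780, minus strand), the partner shared by all activated Smads, was higher in ST2+ cells of skin and of lungs than in ST2+ cells of spleen. Skin libraries had 208, 263, 207, 289 and 235 CPM, lungs libraries 269, 238, 208, 239.4 and 208 CPM and spleen libraries 118, 148, 155, 149 and 146 CPM. Neither tissue overlapped spleen, and the log2 differences were 0.75 ± 0.16 (SE, edgeR adjusted p = 0.000169) in skin and 0.70 ± 0.16 (SE, adjusted p = 0.00195) in lungs. The skin difference in ST2- CD44hi cells was 0.46 (adjusted p = 0.0210), under the 1.5-fold minimum. Without mouse 1 the lungs difference was 0.58, also under that minimum. With the 3 shallow libraries, those under 1000000 counts, included, neither the skin nor the lungs difference passed (edgeR adjusted p = 0.0563 and 0.193). For Tgfbr1, Tgfbr2, Smad2, Smad3 and Smad4, no gap between neighbouring group means exceeded the larger SD.

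Smad7, the inhibitory Smad (chr18:75367529-75395935, plus strand), had the widest range over tissues. Skin ST2+ cells had 200.0, 145, 124, 91.8 and 141 CPM and spleen ST2+ cells 14.8, 41.3, 46.4, 25.3 and 26.1 CPM. Skin ST2- CD44hi cells had 159.8, 117, 121, 139 and 126 CPM and spleen ST2- CD44hi cells 31.8, 36.8, 27.0, 20.3 and 23.2 CPM. No skin library overlapped any spleen library, and the log2 differences were 2.19 ± 0.28 (SE, edgeR adjusted p = 3.51e-09) and 2.25 ± 0.28 (SE, adjusted p = 1.65e-09).

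Smad7 was also the only member called in skin over each of the 5 other tissues in both populations. Among all genes, 4.13% were called in 1 direction, higher or lower in skin, against all 5 tissues in both populations. In ST2+ cells the log2 difference of skin was 2.91 over blood, 1.43 over lungs, 2.26 over VAT and 1.26 over colon, with edgeR adjusted p from 3.68e-11 to 0.00345. In ST2- CD44hi cells the differences were 1.23, 1.48, 2.32 and 1.53 in the same order, with adjusted p from 2.72e-09 to 0.000234. No member met the same rule, in either direction, for 1 of the other 5 tissues, which 0.516% of all genes did. With limma-voom, 2 members were specific to skin, Smad7 and Ski. Counting Smad7, the members called between skin and each tissue were 6 for blood (27.3% of all genes), 5 for lungs (17.9%), 6 for VAT (21.9%) and 2 for colon (17.0%) in ST2+ cells. In ST2- CD44hi cells it was 4 for blood (30.0%), 6 for lungs (20.1%), 5 for VAT (18.1%) and 3 for colon (15.6%). Neighbouring group means of Smad7 differed by more than the larger SD from skin ST2- CD44hi cells (132 ± 17.5 CPM, SD, n = 5) to lungs CD44lo cells (80.2 ± 16.7, SD, n = 5), from these to colon ST2+ cells (58.6 ± 9.69, SD, n = 3), and from colon ST2- CD44hi cells (45.9 ± 7.07, SD, n = 5) to spleen ST2+ cells (30.8 ± 12.9, SD, n = 5).

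Ski (chr4:155154075-155222592, minus strand) and Skil (chr3:31095058-31122577, plus strand) encode related repressors that bind activated Smads. Ski had 200.0, 156, 228, 154 and 207 CPM in skin ST2+ cells and 61.0, 109, 82.3, 66.1 and 84.3 CPM in spleen ST2+ cells. ST2- CD44hi cells of skin had 181, 149, 218, 152 and 183 CPM and those of spleen 69.6, 88.3, 85.7, 71.3 and 78.4 CPM. Neither comparison overlapped, with log2 differences of 1.23 ± 0.18 (SE, edgeR adjusted p = 2.33e-07) and 1.17 ± 0.18 (SE, adjusted p = 7.22e-07). Ski was not called over spleen in lungs, VAT or colon of either population.

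Skil was above spleen in skin, colon, lungs and VAT of both populations, and was the member called in most tissues. Skin ST2+ cells had 602, 635, 455, 451 and 602 CPM, the 3 colon ST2+ libraries 424, 394 and 465 CPM, and spleen ST2+ cells 159.5, 137, 139, 131 and 159 CPM. Skin ST2- CD44hi cells had 439, 469, 487, 449 and 604 CPM, colon 327, 458, 343, 446 and 563 CPM, and spleen 116, 138, 127, 148 and 171 CPM. Skin and colon lay wholly above spleen in both populations. The log2 differences in ST2+ cells were 1.92 ± 0.21 in skin, 1.56 ± 0.23 in colon, 1.09 ± 0.21 in lungs and 1.06 ± 0.21 in VAT (SE, edgeR adjusted p from 5.43e-11 to 0.000162). Those of ST2- CD44hi cells were 1.80 ± 0.21 in skin, 1.61 ± 0.21 in colon, 0.79 ± 0.21 in lungs and 0.64 ± 0.21 in VAT (SE, adjusted p from 3.09e-10 to 0.0453). The latter 2 differences, in lungs and VAT, came from overlapping groups. They were lost without mouse 2, 3 or 4 in lungs (edgeR adjusted p from 0.0720 to 0.101) and without mouse 1, 2, 3 or 4 in VAT (0.0812 to 0.281). The VAT call was also lost with limma-voom (log2 0.46, adjusted p = 0.179), with sorted cells as a covariate (0.55, edgeR adjusted p = 0.126) and with no filter on low counts (0.64, edgeR adjusted p = 0.0564), and both calls were lost with the 3 shallow libraries included (edgeR adjusted p = 0.178 in lungs and 0.238 in VAT).

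Counted by tissue, members called against spleen in ST2+ cells were 0 of 10 in blood (4.11% of all genes), 2 in lungs (4.87%), 1 in VAT (11.2%) and 2 in colon (10.4%). In ST2- CD44hi cells they were 2 in blood (3.38%), 1 in lungs (4.03%), 1 in VAT (5.78%) and 2 in colon (11.0%). All of these edgeR calls were higher than in spleen. Beside Skil, the colon call in ST2+ cells was Smad7, with a log2 difference of 0.93 ± 0.31 (SE, edgeR adjusted p = 0.0371), lost without mouse 1, 4 or 5 (adjusted p from 0.122 to 0.349). The blood calls in ST2- CD44hi cells were Smad7 (log2 1.02 ± 0.27 SE, edgeR adjusted p = 0.0174) and Ski (0.70 ± 0.18 SE, adjusted p = 0.0140). Smad7 there was lost without mouse 4 or 5 (edgeR adjusted p = 0.119 and 0.104) and Ski without mouse 1 or 5 (0.142 and 0.0537), with the 3 shallow libraries included (0.0577) and with limma-voom, where its log2 difference of 0.57 was under the minimum. In this comparison 5 of 5 platelet genes and the globin genes Hbb-bs and Hbb-bt were called higher in blood, with platelet sums of 164 and 0.336 CPM and erythroid sums (5 genes) of 215 ± 282 and 4.11 ± 4.56 CPM in blood and spleen (SD, n = 5). Their part in the blood calls was not tested. With DESeq2 and limma-voom, Smad7 was also called over spleen in lungs of ST2+ cells (log2 0.76 and 0.64). For ST2- CD44hi cells both tools added Smad7 in lungs (0.75 and 0.8) and colon (0.74 and 0.76) and Smad4 in blood (0.59 and 0.62). Limma-voom, but not DESeq2, added Tgfb1 in VAT ST2+ cells (0.95) and, in lungs ST2- CD44hi cells, Smad3 (1.07) and a lower Tgfbr1 (-0.75).

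**Figure D3:**
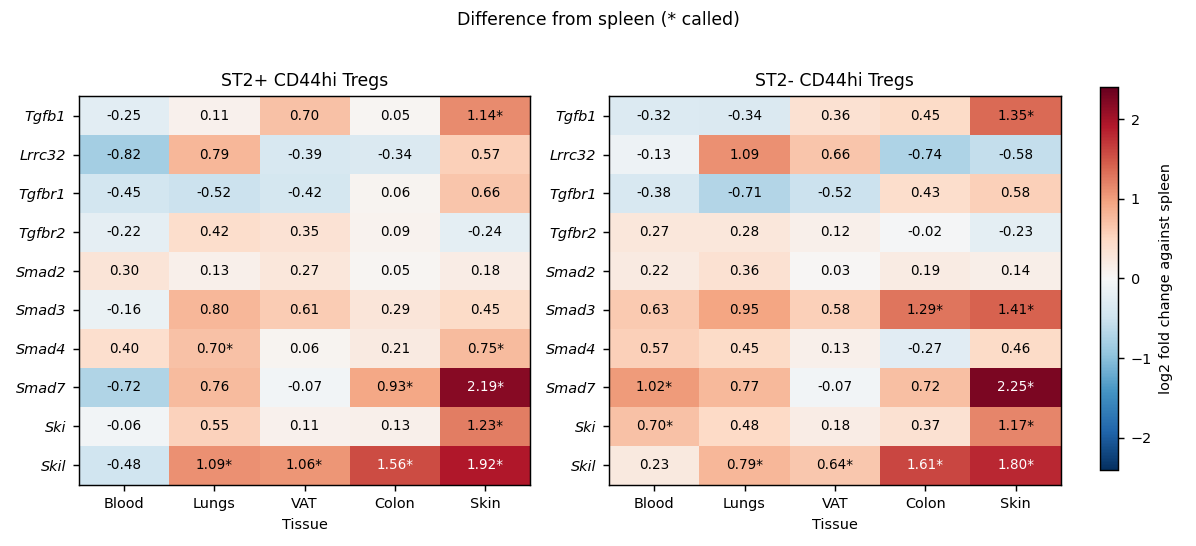
Heat map of the log2 difference from spleen, with members in rows and tissues in columns, for ST2+ cells on the left and ST2- CD44hi cells on the right. Red is higher than spleen, blue lower, and an asterisk marks a call. Smad7 in skin has the highest values, 2.19 and 2.25, and Skil is marked in lungs, VAT, colon and skin of both populations.

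The tissues also differed in transcripts of other cells and in their preparation. Fibroblast and stroma markers (6 genes, Dcn the most abundant where the sum was highest) summed to 50.8 ± 37.8 CPM in skin ST2+ cells and 238 ± 299 CPM in skin ST2- CD44hi cells (SD, n = 5), with 5 of 6 called over spleen in each. Smad7, Ski and Skil stood at similar means in those 2 skin groups, 140.3 and 132, 189 and 177, and 549 and 489.7 CPM. Epithelial markers (7 genes, with Krt14 at 120.3 and 123 CPM the most abundant in skin) summed to 307 ± 212 and 328 ± 448 CPM there, with Krt8 at 0 in both. Mast cell markers (4 genes) summed to 617 CPM in the skin ST2+ library of mouse 4 and to 0 in the other 4 libraries. In colon ST2+ cells myeloid markers (8 genes, led by Lyz2 at 522 CPM, with S100a8 at 0) summed to 956 ± 93.2 CPM, against 81.4 ± 69.9 CPM in colon ST2- CD44hi cells, while Skil had means of 428 and 427 CPM. Fibroblast and stroma markers were highest of all groups in colon ST2+ cells, at 802 ± 404 CPM (led by Dcn, 6 of 6 called over spleen, SD, n = 3), and stood at 283 ± 308 CPM in colon ST2- CD44hi cells (SD, n = 5). Epithelial markers there summed to 549 and 217 CPM, with Epcam the most abundant, and endothelial markers (5 genes, led by Plvap) to 327 and 463 CPM. In lungs the epithelial genes Sftpc and Scgb1a1 were called over spleen in both populations, at 56.4 and 24.9 CPM in ST2+ cells and at 29.6 and 24.9 CPM in ST2- CD44hi cells, with both at 0 in every spleen CD44hi library. The endothelial gene Plvap was called in lungs ST2+ cells as well, although it was above 0 in 2 of 5 libraries, and the platelet gene Ppbp in lungs ST2- CD44hi cells. Epcam, also listed as epithelial, went the other way and was called lower in lungs than in spleen in ST2- CD44hi cells. In spleen Epcam stood at 155 and 59.6 CPM in ST2+ and ST2- CD44hi cells, with Krt5 and Krt14 at 0 as well. In VAT the myeloid gene C1qa, the stromal gene Dcn (16.7 and 18.9 CPM) and the adipocyte gene Fabp4 (20.8 and 42.7 CPM) were called over spleen in both populations, with Csf1r and Lyz2 in ST2+ cells and Lum in ST2- CD44hi cells. Skin, colon, lungs and VAT were digested with enzymes, skin the longest, whereas blood and spleen were not, and tissue and digestion cannot be told apart. Per the study's methods, spleen and lungs had a step of CD4+ T cell enrichment before the sort, which cannot be told apart from tissue either. The part of these other cells in the differences was not tested.

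ST2+ and ST2- CD44hi cells were compared within each tissue. In blood 3 of 10 members were called, all lower in ST2+ cells (4.04% of all genes called in either direction). They were Lrrc32, Smad7 and Ski. With edgeR no member was called in lungs (0.782% of all genes), nor in colon (0.0683%), skin (0.213%) or spleen (0.319%), although limma-voom called Lrrc32 in lungs (log2 -1.11, adjusted p = 0.00365). At these low shares of called genes, the lack of calls does not show that the members were equal. The median log2 difference of the 10 members was -0.42 in blood, where that of all genes was 0.00, and lay between -0.01 and 0.23 in the other tissues.

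Smad7 in blood had 28.7, 2.55, 19.8 and 24.0 CPM in the ST2+ libraries of mice 2 to 5 and 43.4, 61.3, 70.2, 53.5 and 53.2 CPM in ST2- CD44hi cells. The groups did not overlap, and the library of mouse 3, which held the fewest cells, was the lowest. The log2 difference was -1.59 ± 0.30 (SE, edgeR adjusted p = 0.000422). Ski in blood had 87.8, 64.9, 94.9 and 62.8 CPM in ST2+ cells and 167, 127, 114, 108 and 123 CPM in ST2- CD44hi cells. These groups did not overlap either, with a log2 difference of -0.72 ± 0.20 (SE, edgeR adjusted p = 0.0210). Skil, at -0.66 ± 0.22 (SE, edgeR adjusted p = 0.0754), did not pass, but did with DESeq2 (-0.65, adjusted p = 0.0435), without mouse 2 (-1.01, edgeR adjusted p = 0.0134) and without the library of fewest cells (-0.82, edgeR adjusted p = 0.0499). The Ski call was lost without mouse 1, 3 or 5 (edgeR adjusted p from 0.0758 to 0.144), without the library of fewest cells alone (-0.62, adjusted p = 0.10) and with limma-voom (-0.53, adjusted p = 0.217). With blood fitted alone, neither Smad7 nor Ski passed (edgeR adjusted p = 0.312 and 0.241).

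Platelet markers (5 genes, none of them at 0, Ppbp the most abundant with 157 CPM) summed to 456 ± 192 CPM in blood ST2+ cells (SD, n = 4) and 164 ± 101 CPM in blood ST2- CD44hi cells (SD, n = 5). None of the 5 was called between them, and their part in the lower Lrrc32, Smad7 and Ski was not tested.

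The interaction of ST2 with tissue passed for 1 of 10 members, Smad7 (edgeR adjusted p = 0.0211), against 1.43% of all genes. Smad7 was lower in ST2+ cells in 4 of 4 blood pairs and higher in 3 of 3 colon pairs. The interaction was lost without mouse 2, 3, 4 or 5 (edgeR adjusted p from 0.0748 to 0.366) and without the blood ST2+ library of fewest cells (0.0536). It was 0.000187 with DESeq2.

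**Figure D4:**
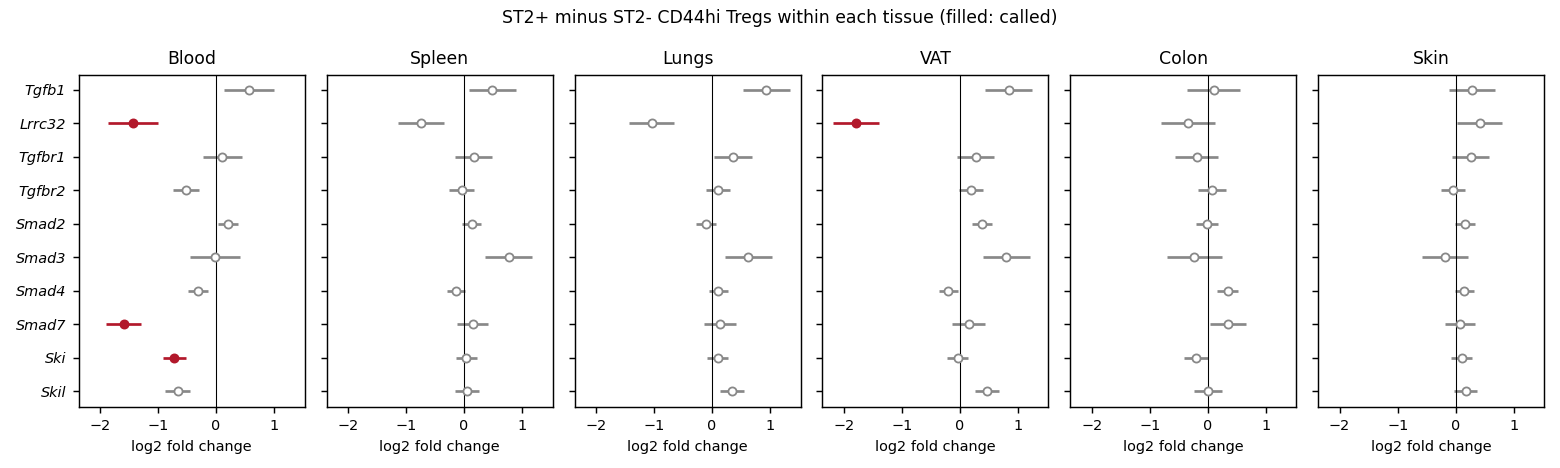
Log2 difference of ST2+ over ST2- CD44hi cells for each member, with 1 panel per tissue. Points are estimates, bars their standard errors, and filled points were called, namely Lrrc32, Smad7 and Ski in blood and Lrrc32 in VAT, all below 0.

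CD44lo Tregs, often described as resting, were compared with ST2- CD44hi cells in spleen and lungs, with the same ST2- CD44hi libraries as above. In spleen 1 of 10 members was called (5.03% of all genes), namely Smad7. CD44lo cells had 56.1, 64.3, 55.8, 56.8 and 47.4 CPM and ST2- CD44hi cells 31.8, 36.8, 27.0, 20.3 and 23.2 CPM, with no overlap. The log2 difference was 1.01 ± 0.27 (SE, edgeR adjusted p = 0.0123), lost without mouse 4 or 5 (0.127 and 0.0726). In lungs 1 of 10 was called (5.53% of all genes), namely Ski, with 207, 161, 232, 159 and 258 CPM in CD44lo cells against 132, 101, 100.3, 101 and 116 CPM. Those groups did not overlap, and the log2 difference was 0.89 ± 0.18 (SE, edgeR adjusted p = 0.000473). The platelet genes Pf4 and Ppbp were called lower in CD44lo cells of lungs, where the 5 platelet markers summed to 0.972 ± 1.23 CPM against 27.6 ± 37.2 CPM (SD, n = 5), and their part was not tested. Smad7 in lungs had 60.3, 66.8, 85.8, 102 and 86.2 CPM in CD44lo cells, above all ST2- CD44hi libraries. Its log2 difference of 0.76 did not pass in the main edgeR fit (adjusted p = 0.0841). It passed with DESeq2 (0.78, adjusted p = 0.0178) and limma-voom (0.74, adjusted p = 0.00401). In edgeR it passed with sorted cells as a covariate (0.76, adjusted p = 0.0356) and without the blood ST2+ library of fewest cells (0.78, adjusted p = 0.0138).

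Between CD44lo cells of lungs and spleen, 3 of 10 members were called, all higher in lungs (3.16% of all genes called). Ski differed by 1.27 ± 0.18 on the log2 scale (SE, edgeR adjusted p = 8.13e-07) and Skil by 1.07 ± 0.21 (SE, adjusted p = 0.000320). Lrrc32 had 532, 489, 679, 227 and 519 CPM in lungs and 201, 137, 266, 214 and 160.0 CPM in spleen. Mouse 4 of lungs overlapped the spleen range, and the log2 difference of 1.32 ± 0.39 (SE, adjusted p = 0.0346) was lost without mouse 2, 3 or 5 (edgeR adjusted p from 0.144 to 0.147). The epithelial markers Sftpc and Scgb1a1 were called higher in lungs as well, and their part was not tested.

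A list of 70 further genes of the pathway gave 64 that were tested. In skin over spleen, 25 rose and 2 fell in ST2+ cells, and 31 rose and 2 fell in ST2- CD44hi cells, with 22 called in both. Over all tested genes, 14.4% and 16.7% were called higher. Of 13 tested genes of ligand and latent complex activation, 5 rose in ST2+ cells and 7 in ST2- CD44hi cells. Itgav, the integrin chain that with Itgb8 releases TGF-beta from its latent form, had a mean of 1356 ± 288 CPM in skin and 118 ± 31.6 CPM in spleen ST2+ cells (SD, n = 5), a log2 difference of 3.53. Itgb8 differed by 1.91. Furin, the protease that cuts the TGF-beta precursor, differed by 3.28, from 15.9 ± 5.88 to 154 ± 49.3 CPM (SD, n = 5). In ST2- CD44hi cells these differences were 3.34, 1.90 and 3.50.

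Of 11 other receptors, 5 rose in skin ST2+ cells and 7 in skin ST2- CD44hi cells, where 14.4% and 16.7% of all genes were called higher. Bambi, a decoy receptor that lacks a kinase, differed by 4.76 and 5.15 on the log2 scale, from 4.47 to 119 CPM in ST2+ means. Its spleen levels, 4.47 ± 4.28 and 3.43 ± 3.11 CPM (SD, n = 5), rested on few counts and reached 0 in each population. The size of these differences is therefore imprecise. Of 17 tested Smads and partners, 6 rose and 1 fell in ST2+ cells, while 5 rose and 1 fell in ST2- CD44hi cells. The repressor Tgif1 had 529 ± 35.0 CPM in skin against 91.03 ± 21.4 CPM in spleen ST2+ cells (SD, n = 5), and differed by 2.54 and 2.44. Tab2, an adaptor of the TAK1 kinase, differed by 1.11 and 1.19. Of 12 genes of receptor and Smad turnover, 2 rose and 1 fell in ST2+ cells and 3 rose in ST2- CD44hi cells, Pmepa1 and Ppm1a being called in both. These 3 of 12 in each population stood near the 29.1% and 30.9% of all genes called.

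Of 13 tested genes known to respond to TGF-beta, 8 rose in skin ST2+ cells, and 10 rose and 1 fell in skin ST2- CD44hi cells. The shares of all genes called higher were 14.4% and 16.7%, and the list was chosen with earlier results of these data known. Cdkn1a, an inhibitor of the cell cycle, had 389 ± 51.8 and 406 ± 42.0 CPM in skin against 14.3 ± 10.2 and 1.27 ± 0.502 CPM in spleen (SD, n = 5), a log2 difference of 4.77 in ST2+ cells. No fold is given for ST2- CD44hi cells, whose spleen level rests on a few counts per library. Foxp3 differed by 1.20 and 1.32, Junb by 1.13 and 1.34, and Id2, an inhibitor of helix-loop-helix factors, by 1.58 and 2.55. Itgav, Itgb8, Furin, Bambi, Tgif1, Tab2, Cdkn1a, Foxp3, Junb and Id2 were named for having the smallest adjusted p of the list in this comparison. Their edgeR adjusted p ran from 3.69e-17 to 0.000295 in ST2+ cells and from 1.01e-16 to 0.000105 in ST2- CD44hi cells. None overlapped between skin and spleen, which, like the small adjusted p, is tied to that choice and adds no support. Most of these genes also answer to other signals.

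**Figure D5:**
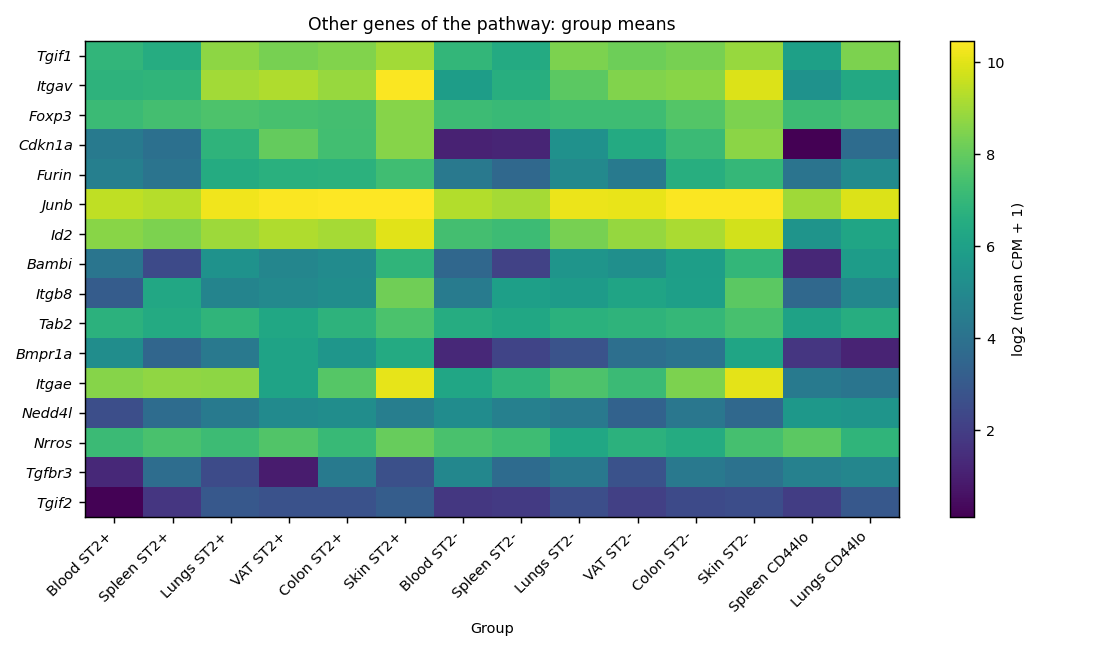
Heat map of the group means of the named pathway genes, as log2 of mean CPM plus 1, with genes in rows and the 14 groups in columns. Itgav, Furin, Cdkn1a, Bambi and Tgif1 are higher in both skin columns than in both spleen CD44hi columns.

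In the ST2 comparison, 7 of the 64 tested pathway genes were called in blood (4 higher in ST2+ cells and 3 lower), 3 in lungs, 3 in VAT and 2 in spleen, all of these higher, and none in colon or skin. Over all tested genes the shares called were 4.04% in blood, 0.782% in lungs, 3.12% in VAT, 0.319% in spleen, 0.0683% in colon and 0.213% in skin, so that few calls or none would be met in a list of this size in colon or skin. Cdkn1a was called higher in ST2+ cells of blood and spleen, where the ST2- CD44hi level rested on a few counts, and of VAT (log2 1.58). Furin was higher in lungs (1.49) and VAT (2.39), as was Nrros, which anchors latent TGF-beta on myeloid cells (0.93 and 0.89), and Itgav was higher in lungs (1.16). In VAT the myeloid gene Csf1r was called higher in ST2+ cells as well, and the 8 myeloid markers, led by Lyz2, summed to 129 ± 51.1 and 49.2 ± 36.6 CPM in ST2+ and ST2- CD44hi cells (SD, n = 5). In lungs Epcam, listed as an epithelial gene, was called higher in ST2+ cells, at means of 61.3 and 12.3 CPM. The 7 epithelial markers, Epcam among them, summed to 144 ± 22.9 and 67.6 ± 25.7 CPM (SD, n = 5). Epcam also stood at 155 and 59.6 CPM in spleen ST2+ and ST2- CD44hi cells, where Krt5, Krt14, Sftpc and Scgb1a1 were at 0. The part of these markers was not tested. In blood, Itgae, the CD103 integrin chain, was higher by 2.38, Id2 by 1.27 and the BMP receptor Bmpr1a by 4.66. Id2 was the other call in spleen, where it was higher by 1.22. Tgfbr3, a co-receptor that presents the ligand, was lower in blood ST2+ cells by a log2 difference of -4.28 and the ubiquitin ligase Nedd4l by -2.78. The repressor Tgif2 was also called lower in blood, at means of 0.113 and 2.48 CPM in ST2+ and ST2- CD44hi cells. These are too few counts for a fold. For the genes named here, edgeR adjusted p ran from 4.84e-05 for Furin in VAT to 0.0361 for Furin in lungs. Blood means of 1.13 CPM for Cdkn1a and 1.46 CPM for Bmpr1a in ST2- CD44hi cells and of 1.46 CPM for Tgfbr3 in ST2+ cells rested on few counts.

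The genes whose group means followed a member most closely over the 14 groups were named by Pearson's r of log2 CPM, and the points share mice and tissues. Tgfb1 was most like Cdk6 (r = 0.970), Plxnd1 (0.967) and Reep3 (0.958). Lrrc32 was most like Plcg1 (r = 0.915), Atg16l1 (0.912) and Ncoa1 (0.912). Smad7 was most like Sptan1 (0.925), Arhgap17 (0.919) and Aff1 (0.916), and Ski like Prrc2c (0.917), Naca (0.914) and Phf3 (0.914). The values were lower for Tgfbr1, with Psmd1 (0.887), Bnip3 (0.884) and Irak1bp1 (0.875), and for Smad4, with Cyth1 (0.882), Arid4a (0.867) and Rev3l (0.861). Skil followed Ddx3x (r = 0.967), Rel (0.966) and Rasgef1b (0.964). Among members, Smad7 and Ski had r = 0.839, Smad7 and Skil 0.737, and the receptors Tgfbr1 and Tgfbr2 -0.71, over n = 14 group means.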

How the data were processed

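RNA-seq was performed on sorted Tregs of 6 tissues from 5 mice. Per the study's methods, the authors made SMART-Seq v4 cDNA and NexteraXT libraries, sequenced single reads, aligned them with STAR to GRCm38 and counted reads per Ensembl gene with HTSeq. The submitters' notes name CASAVA 1.8.2 and HTSeq 0.4.1. The sources used here do not give the counting mode or the strand setting. The authors deposited raw counts per gene, with no normalization, and 0 columns were left unused. Of 53465 gene IDs, 53274 were in the GRCm38 annotation, 21865 of them protein coding, and none of the 10 genes shares exon bases with another annotated gene.

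Libraries with over 1000000 counts were kept (67 of 70). Testing covered the 13173 protein-coding genes that reached 1 CPM in 10% or more of these libraries. Counts were scaled by TMM and tested by the quasi-likelihood test of edgeR 4.0.16 in R 4.3.3, with all 14 groups in 1 fit and Benjamini-Hochberg adjustment over all tested genes. A call needed a change of 1.5-fold or more with an adjusted p no greater than 0.05. At the median depth 1 CPM is 2.04 counts, so that levels of a few CPM are imprecise. Levels are TMM-scaled CPM. Nothing states that samples were sorted or amplified in separate batches.

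The alternatives were DESeq2 1.42.0, limma 3.58.1 with voom quality weights, RLE factors, no filter (18536 genes), 1 CPM in 50% of libraries (10400 genes), all 70 libraries (13222 genes), sorted cells as a covariate, each tissue alone, mouse as a block and each mouse left out. The blood ST2+ library of 55 cells was left out as a further alternative, chosen after seeing the data. The labels name the mouse of each library, so that groups are paired by animal. Over 6440 genes, deviations from group means correlated between ST2+ and ST2- cells of 1 mouse and tissue with a mean r of 0.117 over 27 pairs (lowest -0.000307, over 0.1 in 14), and with -0.0278 over 108 pairs of different mice. The 5 mice are the replicates.

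The members and the gene lists were chosen with earlier results of these data known. All 10 members are named, with the pathway genes called between ST2+ and ST2- cells in any tissue, the 10 pathway genes with the smallest larger adjusted p among those called in skin over spleen in both populations, and, for each member with a tissue difference in both populations, the 3 genes most like it over the 14 group means (log2 CPM, prior count 2). Nrros was matched under its current symbol only. Scripts were tested on simulated data and ran in Python 3.11.15 with numpy 2.4.6, pandas 2.3.3 and matplotlib 3.10.9. Some sort markers are not reported here.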

Additional observations from a re-analysis of the deposited data

Results flagged for a closer look

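Within groups of 4 or 5 libraries, 130 gene and group combinations were examined for a single library far from the rest, and 7 were found where chance gives about 6.5. Mouse 1 supplied 5 of them. Its colon ST2- CD44hi library had 177 CPM of Tgfb1, where the next highest was 61.6, and 296 CPM of Tgfbr2, where the next was 175. Its lungs ST2+ library had 123 CPM of Smad2, below the next lowest of 162, and 151 CPM of Smad3, above the next of 74.7. Its spleen ST2+ library had 118 CPM of Smad4, where the next lowest was 146. The skin ST2- CD44hi library of mouse 3 had 173 CPM of Smad4, where the next lowest was 219. The lungs CD44lo library of mouse 2 had 366 CPM of Skil, where the next highest was 278.

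Whether the difference of ST2+ and ST2- CD44hi cells varied between tissues was tested as an interaction, which without a block passed for Smad7 (edgeR adjusted p = 0.0211) and for no other member. Lrrc32 and Ski are given for their directions in single mice. Lrrc32 was higher in ST2+ cells in every mouse in skin and lower in every mouse in blood, lungs, VAT, colon and spleen, and its interaction had an edgeR adjusted p of 0.122, which came to 0.0329 with mouse as a block and 0.0394 with limma-voom. Ski was higher in every mouse in skin and lower in every mouse in blood, with an edgeR adjusted p of 0.313 for the interaction.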

How the results depend on the processing

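Of 71 calls of a member in a comparison, none reversed, 46 kept their call without any 1 mouse and 38 under every alternative run for them. The calls lost numbered 1 with DESeq2, 5 with limma-voom, 1 with RLE factors, 3 with no filter, 0 with the stricter filter, 16 with all libraries, 2 with sorted cells as a covariate and 7 to 15 without 1 mouse. Smad7, Ski and Skil in skin over spleen held under every alternative in both populations. All 4 ST2 calls were lost with each tissue fitted alone, which gave 1 other call (Lrrc32 in lungs, adjusted p = 0.0307), and their number was 2 to 4 without 1 mouse. Members with a tissue difference in ST2+ cells numbered 8, and 5 to 7 without 1 mouse. Calls of members against spleen in ST2- CD44hi cells, summed over tissues, numbered 11. They came to 7 with all libraries and 7 to 10 without 1 mouse. With DESeq2 they were 14, with limma-voom 16 and with sorted cells as a covariate 13. The member specific to a tissue became 2 with limma-voom. Calls of CD44lo against CD44hi cells came to 1 to 2 without 1 mouse. The interaction called 1 member, 2 with limma-voom (Lrrc32, adjusted p = 0.0394), 2 with mouse as a block, 0 without the blood ST2+ library of fewest cells, and 0 to 1 without 1 mouse. With the replicate block 7 calls were gained and 1 lost, all given in the results for Tgfb1, Lrrc32 and Tgfbr2, and no other call changed. DESeq2 gained 9 calls and limma-voom 17. Depth limits Smad7 and Smad3 most, with as few as 6 and 7 counts in a library. The cause of these changes was not tested.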

Other observations

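Mouse 1, the youngest at 16.6 weeks, had the highest Tgfb1 of its group in 11 of its 13 groups and the highest Lrrc32 in 8 of 13, while mouse 4 had the lowest Lrrc32 in 5 of 14. As each mouse was a single animal, age and animal cannot be told apart.

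The 3 libraries left out held few or uneven counts of the members. The blood ST2+ library of mouse 1, with 488666 counts from 66 cells, had 305 counts of Tgfbr1 and 91 of Tgfb1, but 1 of Lrrc32 and 0 of Smad2, Smad3, Smad4 and Skil. The colon ST2+ library of mouse 5, with 62333 counts, had 20 counts of Skil, 10 of Smad2 and 8 each of Tgfbr2 and Smad4. The colon ST2+ library of mouse 2, with 3582 counts, had 1 count of Skil and 0 of the other 9 members.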
